A study of Mus musculus with 11 samples.

Results

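The 35 genes described here belong to glycolysis and to the hypoxia response, and were measured in neural stem cells (NSCs) of the mouse hippocampus. They were listed by name from their known roles, with earlier results of these data known. Their symbols were matched to the gene identifiers of the tables. Of the 53801 genes listed in each table, these 35 were all found. They fall into 16 glycolytic enzymes, 7 glucose and lactate transporters and flux regulators, 4 HIF factors and prolyl hydroxylases, and 8 other HIF targets.

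The cells were primary NSCs from the hippocampus of mid-gestation embryos, grown for 7 days in proliferation medium (DMEM/F12 with EGF, bFGF and 1% B27) or in differentiation medium (without the growth factors, with 2% B27). Each medium held either 1 µM 4HBP or the vehicle EtOH, which served as control. There were 3 libraries with 4HBP and 3 controls in proliferation medium, and 3 with 4HBP and 2 controls in differentiation medium. The study names 4HBP as 4-hydroxybenzophenone, a metabolite of the UV-absorbing compound benzophenone, whereas the sample labels spell it out as 4-hydroxybenzoic acid, and the text follows the study. No label says whether replicates came from separate cultures, so the p-values measure the spread between these libraries, which may be technical.

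Glycolysis breaks glucose down to pyruvate, and lactate dehydrogenase turns pyruvate into lactate. Hypoxia-inducible factors (HIFs) are pairs of an alpha and a beta subunit. In oxygen, prolyl hydroxylases mark the alpha subunit for destruction, and in low oxygen it binds a short DNA core next to its targets, among them most glycolytic enzymes. The alpha subunits are controlled mainly as proteins, so their mRNA is no measure of HIF activity. In the developing brain, dividing progenitors are known for high glycolysis, and neurons rely more on oxidative metabolism.

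The libraries held 20822921 to 23438463 expected counts each. A count of 3 was taken as the smallest detectable amount, or 0.128 to 0.144 CPM (counts relative to the library total). Such a floor accounts for counting error alone. Transcripts of NSC markers (Nes, Sox2, Pax6, Vim and Fabp7) were present in all libraries, with a summed level of 4295 to 5243 normalised CPM in proliferation and 1534 to 1558 in differentiation medium. Normalised CPM are CPM with the library total corrected by TMM. In proliferation medium, 4HBP replicate 3 stood apart. Its chi-square to replicate 1, averaged over genes, was 25.6, where replicates 1 and 2 differed by 5.62. Several calls that involve it, and several values that it moves, are therefore also given without it. The library names carry no batch or date. In bulk RNA, fewer cells of a type and less RNA per cell cannot be told apart.

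The glycolytic enzymes were among the more abundant transcripts. Their summed share of all counts was 0.530% to 0.687% in proliferation medium, the lowest in 4HBP replicate 3, and 0.673% to 0.701% in differentiation medium. Per transcript length (TPM), Gapdh was the highest member in both kinds of control culture, at 2337 ± 50.3 TPM (SD, n = 3) in proliferation and 2244 ± 63.6 TPM (SD, n = 2) in differentiation medium. In proliferation controls Pkm, the pyruvate kinase gene, followed with 666 ± 44.6 TPM, and its spread overlapped that of Gpi1 (glucose-6-phosphate isomerase) at 614 ± 16.9 TPM. In differentiation controls, Ldhb at 800 ± 14.6 TPM, Aldoa at 797 ± 16.0 TPM and Eno1 at 786 ± 7.99 TPM came after Gapdh and lay within each other's spread. At the low end, Pfkfb4, Car9, Hk2, Ankrd37, Slc16a3, P4ha2 and Ndrg1 lay under 3 TPM in proliferation controls, from 2.91 TPM for Pfkfb4 down to 0.580 TPM for Ndrg1.

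Alpha and beta HIF subunits together recognise the cores ACGTG and GCGTG, which were searched for on both strands in the 250 bases before each RefSeq gene start of GRCm38.p6. Of the 35 members, 32 had an entry, and 29 of these held a core before at least 1 of their listed starts, against 41.5% of all genes in the table. Genes with more starts have more chances of a core. Counted by start, 36 of 45 starts of members had a core, against 38.6% of all starts. The table holds genes whether or not these cells express them, and the members were listed in part as known HIF targets. By list, a core was found for 13 of 16 glycolytic enzymes, 6 of 6 transporters and regulators, 3 of 3 HIF factors and hydroxylases, and 7 of 7 other HIF targets. Ndrg1, Epas1 and Slc2a3 had no entry. A core on both strands at the same place spells CACGTG, which is also the E-box of other factors, and a match describes letters only. The windows below are 60 bases each, 5′ to 3′ on the strand of the gene, with the cores in capitals on either strand. The upper 5 belong to members that changed under 4HBP, and the lower 3 to members that changed with the medium.
Hk2: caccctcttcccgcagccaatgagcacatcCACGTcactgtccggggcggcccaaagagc
Pfkfb3: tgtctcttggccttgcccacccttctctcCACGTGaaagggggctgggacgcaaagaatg
Pdk1: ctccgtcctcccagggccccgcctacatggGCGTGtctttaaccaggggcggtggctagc
Pfkm: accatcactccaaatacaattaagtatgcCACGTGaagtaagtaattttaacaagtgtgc
Ldhb: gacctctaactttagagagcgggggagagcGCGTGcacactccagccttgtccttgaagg
Ldha: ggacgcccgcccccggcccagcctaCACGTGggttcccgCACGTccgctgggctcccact
Bnip3: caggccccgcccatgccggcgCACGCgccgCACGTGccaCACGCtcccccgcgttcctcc
P4ha1: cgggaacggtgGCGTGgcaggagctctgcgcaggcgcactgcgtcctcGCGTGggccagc
They lie at chr6:82774477-82774536 (minus strand), chr2:11502113-11502172 (minus), chr2:71873116-71873175 (plus), chr15:98092424-98092483 (plus), chr6:142508054-142508113 (minus), chr7:46845731-46845790 (plus), chr7:138909585-138909644 (minus) and chr10:59323122-59323181 (plus), all outside annotated exons. Those of Pfkfb3 and Ldha lie inside the annotated gene, before a further start, and the other 6 lie upstream of the gene. For Vegfa, the 250 bases before the upstream start held no core.

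Whether 4HBP changed these genes in dividing cultures was asked by comparing the 3 libraries with 4HBP and the 3 controls in proliferation medium. Of the 34 members tested, 8 passed edgeR's quasi-likelihood test at a Benjamini-Hochberg adjusted p under 0.05, against 7.43% of all genes tested. Hk2, Pfkfb3 and Vegfa rose (3 members, with 3.74% of all genes higher), and Pfkm, Ldhb, Pdk1, Epas1 and Car9 fell (5 members, with 3.69% lower). The changes thus ran in opposite directions within glycolysis and within the HIF genes. The median log2 fold change was -0.11 over the members and 0.00 over all genes tested. The median of the members leaned on 4HBP replicate 3. Without it 7 estimates changed sign, and the middle estimates were those of Slc16a1 (-0.025) and Slc2a3 (-0.0039). Ankrd37, an ankyrin repeat gene, was under the detection filter, between 0.197 and 0.488 normalised CPM.

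Hk2, which encodes an inducible hexokinase of the entry step of glycolysis, was at 11.8, 10.6 and 9.83 normalised CPM in the 4HBP libraries and at 5.32, 5.18 and 7.88 in controls. All 4HBP libraries lay above all controls. The log2 fold change was 0.81 (standard error 0.18, edgeR adjusted p = 0.032). Its constitutive partner Hk1, at 275 to 337 normalised CPM with 4HBP and 289 to 331 in controls, had a log2 fold change of 0.01 (edgeR adjusted p = 0.97).

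Pfkm encodes the muscle-type subunit of phosphofructokinase, the committed step of glycolysis. It was at 135, 118 and 112 normalised CPM with 4HBP and at 174, 169 and 162 in controls, so the groups did not overlap. It fell by 0.47 on the log2 scale (standard error 0.08, edgeR adjusted p = 0.014). The platelet-type subunit Pfkp had a log2 fold change of 0.29 and the liver-type Pfkl of -0.39 (edgeR adjusted p = 0.21 and 0.15), both with overlapping groups. Senp1 has an exon on the other strand that overlaps Pfkm, and whether the counting used strand is not given in the sources used here.

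Ldhb, the lactate dehydrogenase subunit that favours the making of pyruvate, was at 242, 227 and 237 normalised CPM with 4HBP and at 302, 327 and 284 in controls. It fell by 0.37 on the log2 scale (standard error 0.08, edgeR adjusted p = 0.026). Ldha, the subunit that favours lactate, ranged over 163 to 260 normalised CPM with 4HBP and over 209 to 240 in controls, and its log2 fold change of -0.11 did not pass the test (edgeR adjusted p = 0.70). No other glycolytic enzyme passed. The remaining 11 of them, besides Hk1 and Ldha, had log2 fold changes between -0.39 (Pfkl) and 0.44 (Eno2). Gapdh, often used as a reference gene, was at 1833, 1830 and 1353 normalised CPM with 4HBP and at 1795, 1804 and 1803 in controls, with 4HBP replicate 3 alone below the rest.

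Among the regulators, Pfkfb3 makes fructose-2,6-bisphosphate, the main activator of phosphofructokinase. It was at 96.4, 113 and 122 normalised CPM with 4HBP and at 53.0, 64.9 and 83.2 in controls. It rose by 0.72 on the log2 scale (standard error 0.15, edgeR adjusted p = 0.027). Pdk1 encodes a kinase that shuts pyruvate dehydrogenase and so keeps pyruvate out of the mitochondria. It was at 25.8, 31.1 and 26.7 normalised CPM with 4HBP and at 41.7, 41.8 and 34.8 in controls, and fell by 0.50 on the log2 scale (standard error 0.11, edgeR adjusted p = 0.028). The glucose transporters Slc2a1 and Slc2a3 had log2 fold changes of 0.04 and 0.13 and the lactate transporters Slc16a1 and Slc16a3 of -0.06 and -0.73, and none of these 4 passed the test.

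Of the HIF factors, Epas1, an alpha subunit known from endothelium and glia, was at 26.3, 18.0 and 21.4 normalised CPM with 4HBP and at 36.1, 52.1 and 39.6 in controls. It fell by 0.96 on the log2 scale (standard error 0.17, edgeR adjusted p = 0.014). Hif1a, the ubiquitous alpha subunit, was at 245, 248 and 263 normalised CPM with 4HBP and at 211, 212 and 215 in controls, so the groups did not overlap. Its log2 fold change of 0.25 did not pass the test (edgeR adjusted p = 0.053). The hydroxylases Egln1 and Egln3 had log2 fold changes of -0.02 and -0.18.

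Among the other HIF targets, Vegfa, the vascular growth factor gene, was at 144, 164 and 193 normalised CPM with 4HBP and at 97.3, 89.4 and 128 in controls. It rose by 0.67 on the log2 scale (standard error 0.14, edgeR adjusted p = 0.029). Car9, a carbonic anhydrase of the cell surface that is often used as a marker of hypoxia, fell from 4.24, 2.76 and 2.88 normalised CPM in controls to 1.71, 1.35 and 0.749 with 4HBP. Its change of -1.37 on the log2 scale had a standard error of 0.32 (edgeR adjusted p = 0.037). Ndrg1 had a log2 fold change of 1.20 with a standard error of 0.41 at 0.683 to 3.79 normalised CPM (edgeR adjusted p = 0.11). Bnip3, Ddit4, P4ha1 and P4ha2 did not pass either, with log2 fold changes between -0.34 and 0.09.

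**Figure D1:**
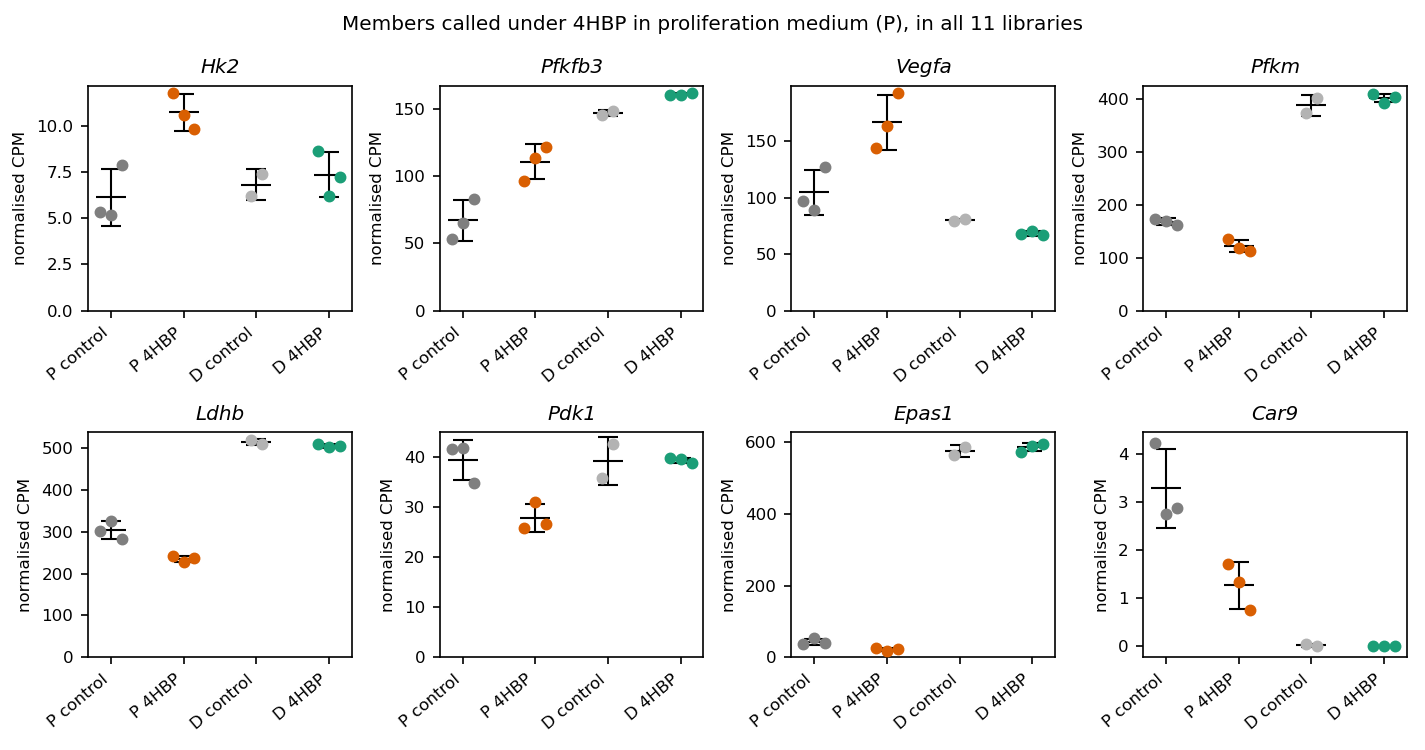
Normalised CPM (linear axis) of the 8 members called under 4HBP in proliferation medium, for every library. Points are libraries and bars the mean ± SD, with P for proliferation medium (3 controls, 3 with 4HBP) and D for differentiation medium (2 controls, 3 with 4HBP). Hk2, Pfkfb3 and Vegfa lie higher with 4HBP in P, the other 5 lower, and Epas1 lies between 565 and 597 in D.

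The calls in proliferation medium rested on few libraries. Without 4HBP replicate 3, all 8 members were still called, together with Eno2 (log2 fold change 0.54, edgeR adjusted p = 0.047). Leaving out control replicate 2 left 0 members called by edgeR, with 11 at an unadjusted p under 0.05, and leaving out control replicate 1 or 4HBP replicate 2 left 1 (Epas1 and Pdk1, respectively). Leaving out 4HBP replicate 1 left 5, without Hk2, Ldhb and Pdk1, and leaving out control replicate 3 left 7, without Car9. limma on log2(CPM+1) is the test in the methods of the study, which called genes at a p under 0.05 with a fold-change limit. That p is not described there as adjusted. At the adjusted p under 0.05 used here, limma called 0 members, with 13 at an unadjusted p under 0.05, where DESeq2 called 11. None of the 8 called members reversed its direction in any of these fits. Among members not called, the estimates of 7 changed sign without 4HBP replicate 3 (Aldoa, Egln1, Eno1, Gapdh, Gpi1, Ldha and Slc2a3), all at most 0.13 in size in both fits. Without it Ndrg1 went from 1.20 to 0.73, Pfkl from -0.39 to -0.22 and Slc16a3 from -0.73 to -0.30, and these 3 passed the test in neither fit.

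Of the markers of other cell types, only some of astrocytes passed the test under 4HBP in proliferation medium. The astrocyte markers (Gfap, Aqp4, Aldh1l1, S100b, Slc1a2 and Gjb6) summed to 3111 to 3591 normalised CPM with 4HBP and to 4433 to 5288 in controls, and 3 of the 6 (Gfap, Aqp4 and Gjb6) passed the test as lower. The markers of dividing cells (Mki67, Top2a, Ccnb1, Cdk1, Pcna and Mcm2) summed to 428 to 800 normalised CPM with 4HBP and to 823 to 973 in controls, and 0 of 6 passed by edgeR, with 3 at an unadjusted p under 0.05. The oligodendrocyte lineage markers (Olig2, Sox10, Pdgfra, Mbp and Mog) summed to 1327 to 2151 against 1943 to 2353. The neuronal ones (Tubb3, Dcx, Map2, Rbfox3, Snap25 and Syt1) summed to 942 to 946 against 962 to 1059. By edgeR 0 of 5 and 0 of 6 passed, with 1 and 0 at an unadjusted p under 0.05. The low ends of 428 and 1327 were 4HBP replicate 3. Replicates 1 and 2 were at 689 and 800 for dividing cells and at 2151 and 1958 for the oligodendrocyte lineage. The part of these cell types in the changes of the members was not tested. Markers of microglia summed to at most 3.81, of endothelium to at most 21.4, of fibroblasts and mural cells to at most 3.85 and of red blood cells to at most 0.338 normalised CPM in these libraries. Cx3cr1, Aif1 and Tmem119 of microglia, Cldn5 and Cdh5 of endothelium, Dcn and Lum of fibroblasts and the haemoglobin genes were at or under 3 counts in all 6.

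In differentiation medium, 4HBP changed 1 of 34 members tested, against 2.56% of all genes tested (1.26% higher and 1.3% lower). Vegfa was at 67.7, 70.5 and 66.9 normalised CPM with 4HBP and at 79.6 and 81.2 in controls, so both controls lay above all 4HBP libraries. It fell by 0.24 on the log2 scale (standard error 0.04, edgeR adjusted p = 0.0070). Without control replicate 1 or control replicate 2 it no longer passed (0 members by edgeR, with 3 and 9 at an unadjusted p under 0.05), and it did not pass when all 11 libraries shared 1 estimate of the spread or with limma on log2(CPM+1).

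No other member passed the test in this medium. The 16 glycolytic enzymes had log2 fold changes between -0.06 (Pfkp) and 0.10 (Hk2), and 11 of the 16 estimates were above 0. By edgeR 0 passed, with 3 at an unadjusted p under 0.05. Their median was 0.03, against 0.00 over all genes tested. Hk2 was at 8.62, 6.21 and 7.25 normalised CPM with 4HBP and at 6.21 and 7.42 in controls. Pfkm was at 393 to 408 normalised CPM with 4HBP and at 374 and 401 in controls, and Ldhb at 502 to 510 and at 521 and 510. Pdk1 was at 38.9 to 39.8 normalised CPM with 4HBP and at 35.9 and 42.6 in controls. For these 4 the groups overlapped. Among the markers, 1 of 5 of NSCs (Fabp7) and 1 of 6 of dividing cells (Ccnb1) passed as higher with 4HBP in this medium. Of the NSC estimates, 2 were above 0 and 3 below, and their sums overlapped (1534 to 1558 normalised CPM with 4HBP, 1541 to 1556 in controls). Of those of dividing cells, 5 were above 0 and 1 below, with sums of 181 to 206 against 153 to 174. The part of these markers in the change of Vegfa was not tested.

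Of the remaining members, Epas1 was at 574, 590 and 597 normalised CPM with 4HBP and at 565 and 588 in controls. Pfkfb3 was at 160 to 161 normalised CPM against 145 and 148 (log2 fold change 0.12, edgeR adjusted p = 0.093). Egln3, the hydroxylase that HIFs themselves induce, was at 8.80, 8.07 and 9.24 normalised CPM with 4HBP and at 11.5 and 11.3 in controls, a log2 fold change of -0.40 that did not pass (edgeR adjusted p = 0.060). Slc16a3 was at 0.610, 0.634 and 0.853 normalised CPM with 4HBP and at 0.397 and 0.458 in controls, without overlap, and its log2 fold change of 0.69 (standard error 0.43) did not pass (edgeR adjusted p = 0.48). Car9 was under the detection filter, at 0 counts in all 3 libraries with 4HBP and at 1 and 0 counts in controls.

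**Figure D2:**
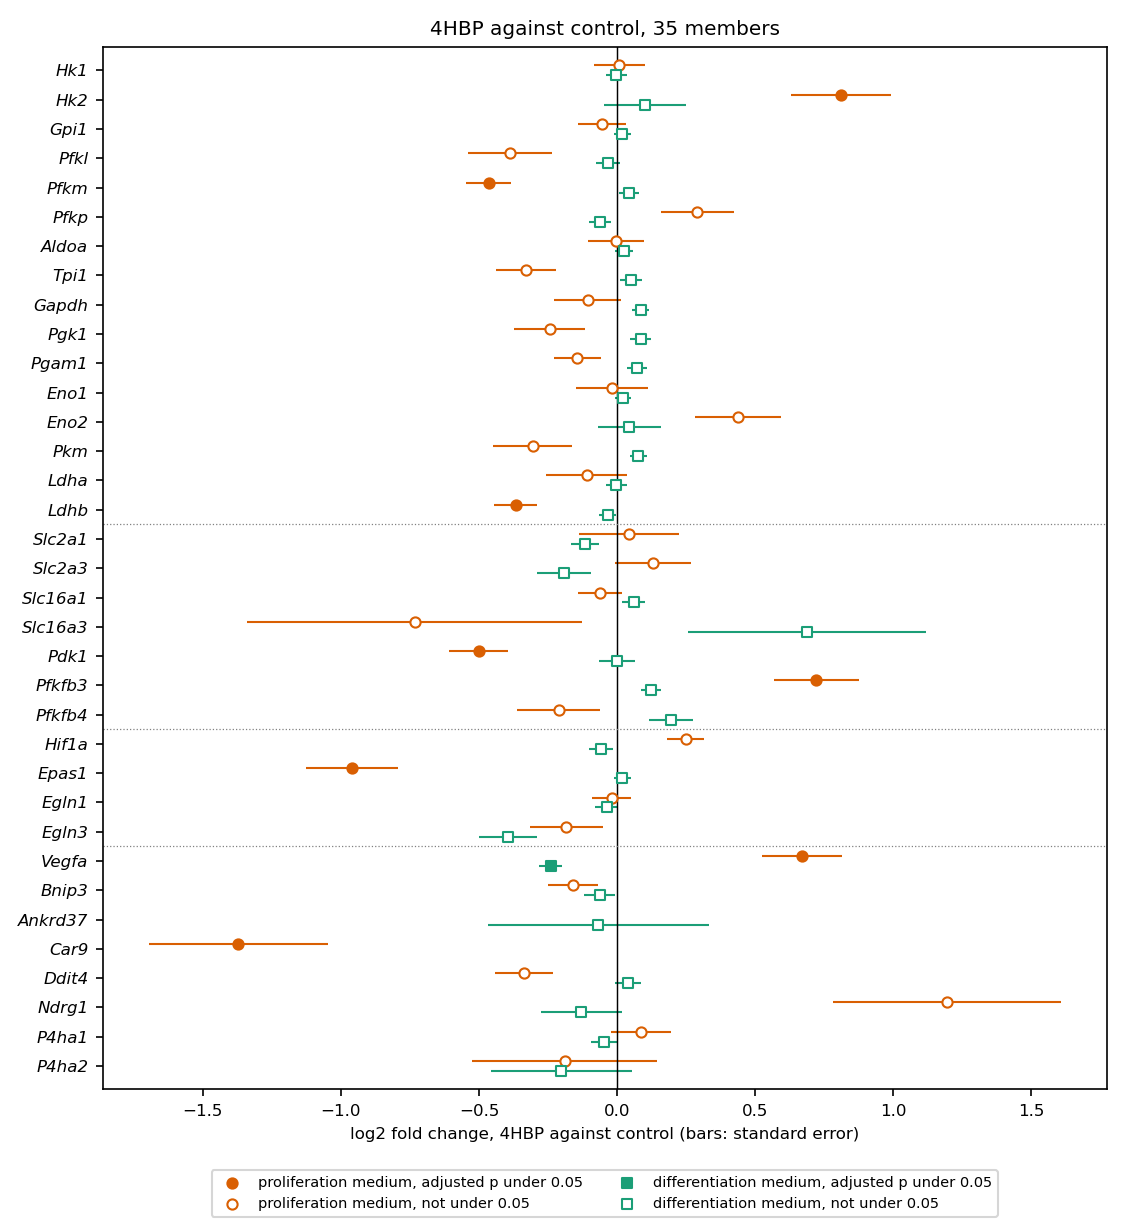
Log2 fold change of 4HBP against control for the 35 members (log2 axis, bars are standard errors), in proliferation medium (orange circles) and differentiation medium (green squares), filled where the edgeR adjusted p is under 0.05. Dotted lines part the 4 lists. The filled symbols are 8 in proliferation medium, from -1.37 (Car9) to 0.81 (Hk2), and Vegfa in differentiation medium at -0.24.

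Whether the effect of 4HBP differed between the media was tested directly, as the log2 fold change in proliferation minus that in differentiation medium in 1 fit of the 11 libraries. Of the 35 members, 4 passed, against 4.49% of all genes tested. Vegfa was higher in this difference (0.90, standard error 0.18, edgeR adjusted p = 0.016; 2.01% of all genes were higher), and it is the member that passed with opposite directions in the 2 media. Epas1 (-0.99, standard error 0.19, edgeR adjusted p = 0.015), Pfkm (-0.52, standard error 0.10, edgeR adjusted p = 0.014) and Ldhb (-0.34, standard error 0.09, edgeR adjusted p = 0.045) were lower, with 2.48% of all genes lower. For Hk2 (0.70), Pfkfb3 (0.59) and Pdk1 (-0.51), which passed in proliferation medium only, the difference itself did not pass (edgeR adjusted p = 0.16, 0.099 and 0.062). For Car9, at the floor in differentiation medium, no difference of effects can be given. Without differentiation control replicate 1 or 2, 0 members passed by edgeR, with 8 and 11 at an unadjusted p under 0.05. Without proliferation 4HBP replicate 3, the same 4 passed, together with Hif1a (0.27, edgeR adjusted p = 0.042), and without proliferation control replicate 3 there were 8. Ldhb lost its call with 8 of the 11 libraries left out in turn, which were 4HBP replicate 2 and control replicates 1 and 2 in proliferation medium and all 5 in differentiation medium. It also lost its call with library totals in place of TMM, with limma on log2(CPM+1) and with the replicate block. Of the astrocyte markers, 3 of 6 (Gfap, Aqp4 and Gjb6) were also lower in this difference, with all 6 estimates below 0. Of the NSC markers, 1 of 5 (Fabp7) was lower, with 2 estimates above 0 and 3 below. The part of these markers in the difference was not tested.

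More members differed between the media than under 4HBP, as did more of all genes. In control cultures, 26 of 35 members differed between the 2 differentiation and 3 proliferation libraries, against 62.9% of all genes tested. Of these, 14 were higher (31.4% of all genes) and 12 lower (31.5%) in differentiation medium. Under 4HBP, 26 of 35 differed as well, against 67.2% of all genes, 18 of them higher (33.8%) and 8 lower (33.4%). With most genes changed, the values that follow are given for their size and direction. Without 4HBP replicate 3 in proliferation medium, 32 members differed under 4HBP, 18 of them higher and 14 lower. In that fit 11254 of all 15439 genes tested differed, 5652 higher and 5602 lower. The 2 medium comparisons use different libraries, but each shares its libraries with the comparisons of 4HBP.

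Within phosphofructokinase, Pfkm rose from 174, 169 and 162 normalised CPM in proliferation controls to 374 and 401 in differentiation controls (log2 fold change 1.21, standard error 0.06, edgeR adjusted p = 4.1e-07). Under 4HBP it rose from 112 to 135 to between 393 and 408 normalised CPM (log2 fold change 1.74). Lactate dehydrogenase changed in opposite directions. Ldhb rose from 284 to 327 to 521 and 510 normalised CPM in controls (log2 fold change 0.77, edgeR adjusted p = 1.3e-05), and Ldha fell from 209 to 240 to 142 and 148 normalised CPM (log2 fold change -0.65, edgeR adjusted p = 5.6e-05). Under 4HBP, the log2 fold changes were 1.12 for Ldhb and -0.53 for Ldha. Pkm fell by 0.53 on the log2 scale in controls (1048 to 1169 down to 770 and 782 normalised CPM, edgeR adjusted p = 8.8e-05), and its change of -0.13 under 4HBP did not pass the test (edgeR adjusted p = 0.43). Without proliferation 4HBP replicate 3 it fell under 4HBP too, by 0.31 (edgeR adjusted p = 6.8e-06). Pgk1, the phosphoglycerate kinase gene, rose under 4HBP from 191 to 283 to between 359 and 377 normalised CPM (log2 fold change 0.61, edgeR adjusted p = 0.0027). Without proliferation 4HBP replicate 3, the log2 fold changes under 4HBP were 0.44 for Pgk1 and -0.71 for Ldha.

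Gapdh fell in controls from 1795 to 1804 to 1475 and 1498 normalised CPM (log2 fold change -0.27, edgeR adjusted p = 0.0015). Under 4HBP it ranged from 1353 to 1833 in proliferation and from 1535 to 1638 in differentiation medium, and did not pass the test (log2 fold change -0.06). Without proliferation 4HBP replicate 3, the lowest of these libraries, Gapdh fell under 4HBP by 0.21 (edgeR adjusted p = 3.1e-04). In all, 4 glycolytic enzymes rose and 7 fell in controls, with a median log2 fold change of 0.06 over the 16, and 5 rose and 4 fell under 4HBP, with a median of -0.06. Without proliferation 4HBP replicate 3, 5 rose and 10 fell under 4HBP, with Gpi1, Pfkp, Tpi1, Gapdh, Pgam1 and Pkm added to those that fell. The middle estimates of the 16 were then those of Tpi1 (-0.19) and Gpi1 (-0.17). With all libraries, the median over all genes tested was 0.02 in controls and under 4HBP.

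Among flux regulators, Pfkfb4 and Pfkfb3, both of which make the activator of phosphofructokinase, rose. Pfkfb4 was at 4.88 to 5.46 normalised CPM in proliferation controls and at 20.1 and 21.8 in differentiation controls (log2 fold change 2.05, edgeR adjusted p = 7.8e-07), and the log2 fold change was 2.47 under 4HBP. Pfkfb3 went from 53.0 to 83.2 normalised CPM to 145 and 148 in controls (log2 fold change 1.14, edgeR adjusted p = 1.2e-04). Glucose transporters changed in opposite directions. Slc2a1, the transporter of glia and of the blood-brain barrier, rose from 23.1, 26.8 and 34.4 normalised CPM to 70.7 and 64.1 in controls (log2 fold change 1.27, edgeR adjusted p = 3.8e-05). Slc2a3, the neuronal transporter, fell from 22.6, 23.4 and 28.4 to 11.7 and 11.2 normalised CPM (log2 fold change -1.11, edgeR adjusted p = 3.9e-05), and under 4HBP from 23.8, 25.6 and 32.1 to between 9.92 and 10.3 (log2 fold change -1.41).

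The lactate transporters also parted. Slc16a1 rose from 67.9 to 79.8 to 117 and 113 normalised CPM in controls (log2 fold change 0.67) and by a log2 fold change of 0.81 under 4HBP (66.4 to 71.9 against 118 to 125 normalised CPM). Slc16a3, known for lactate export from glycolytic cells, was at 1.37, 2.22 and 0.991 normalised CPM in proliferation controls and at 0.397 and 0.458 in differentiation controls (log2 fold change -1.81, standard error 0.46, edgeR adjusted p = 0.0067). Without differentiation control replicate 1 it did not pass. Under 4HBP its change of -0.38 did not pass (edgeR adjusted p = 0.61). Without proliferation 4HBP replicate 3 the change under 4HBP was -0.83, which did not pass either (edgeR adjusted p = 0.12).

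Epas1 had the largest rise of the members in both comparisons. It went from 36.1, 52.1 and 39.6 to 565 and 588 normalised CPM in controls, up by 3.77 on the log2 scale (standard error 0.13, edgeR adjusted p = 5.3e-08), and by 4.76 on the log2 scale under 4HBP (standard error 0.13). Hif1a, the other alpha subunit, fell from 211 to 215 to 148 and 158 normalised CPM (log2 fold change -0.46, edgeR adjusted p = 1.3e-04), and by 0.75 on the log2 scale under 4HBP. Egln1 rose by a log2 fold change of 0.30 in both.

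The other HIF targets did not move one way. Ndrg1, a differentiation gene of Schwann cells and oligodendrocytes, rose from 0.683, 0.986 and 1.54 to 8.19 and 6.08 normalised CPM in controls (log2 fold change 2.74, standard error 0.29, edgeR adjusted p = 3.3e-05). Under 4HBP it rose by 1.43 on the log2 scale (1.62, 1.93 and 3.79 against 6.07 to 7.18 normalised CPM), and by 1.875 without proliferation 4HBP replicate 3. P4ha1, a collagen prolyl hydroxylase, rose from 33.9 to 35.3 to 70.4 normalised CPM in each differentiation control (log2 fold change 1.04, edgeR adjusted p = 1.4e-06), and Bnip3, a mitophagy gene, rose by 0.42. Car9 was at least 24.9-fold lower in differentiation controls and at least 8.95-fold lower under 4HBP, computed against the floor of 3 counts per library. Vegfa fell from 97.3, 89.4 and 128 to 79.6 and 81.2 normalised CPM in controls (log2 fold change -0.37, edgeR adjusted p = 0.031), a call that was lost without differentiation control replicate 1 or 2, with library totals in place of TMM and with limma on log2(CPM+1) (edgeR or limma adjusted p up to 0.25). Under 4HBP it fell from 144, 164 and 193 to between 66.9 and 70.5 normalised CPM (log2 fold change -1.27, standard error 0.09, edgeR adjusted p = 4.3e-06).

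**Figure D3:**
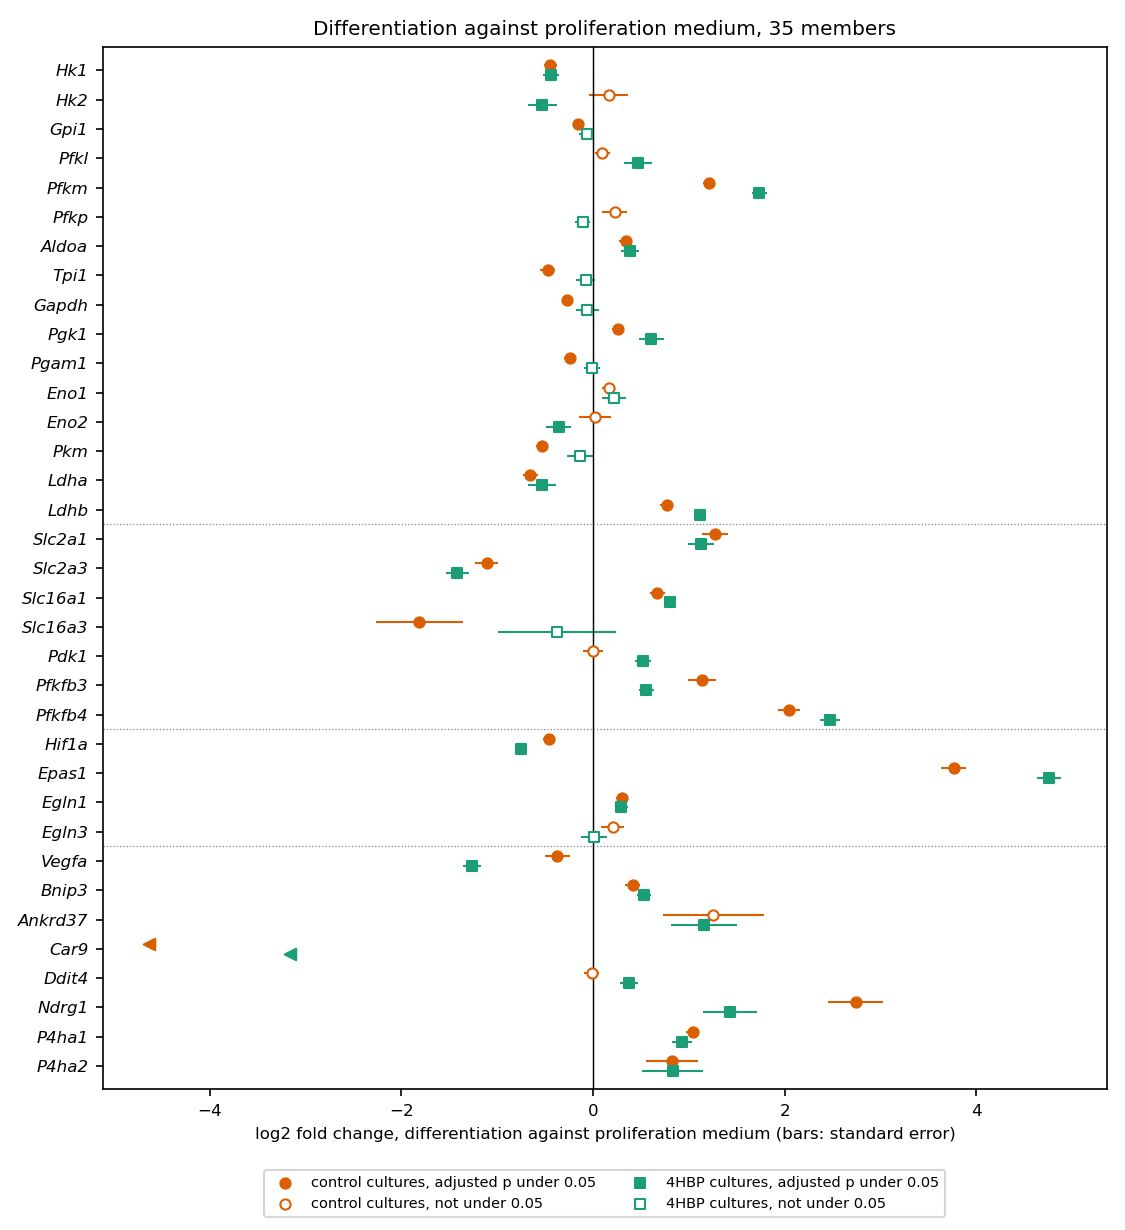
Log2 fold change of differentiation against proliferation medium for the 35 members (log2 axis, bars are standard errors), in control cultures (orange circles) and 4HBP cultures (green squares), filled where the edgeR adjusted p is under 0.05. Triangles for Car9 are bounds against the floor, at -4.64 and -3.16, and Epas1 lies farthest to the right at 3.77 and 4.76.

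Cell type markers also moved with the medium. NSC markers were lower for 5 of 5 in controls, and dividing-cell markers were lower for 6 of 6 in both comparisons, at 153 to 206 normalised CPM in sum in differentiation medium. The astrocyte markers summed to 5448 to 5648 normalised CPM in differentiation medium and those of the oligodendrocyte lineage to 3917 to 4184, with 4 of 5 of the latter higher in controls. Fibroblast and mural cell markers summed to 27.8 to 31.4. Neuronal markers summed to 904 to 940, with 4 of 6 higher and 1 lower in controls, and astrocyte markers were 4 higher and 2 lower. The part of these cell types in the changes of the members was not tested.

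Which member of a family a culture used was described as the share of the family's TPM, which compares genes per length. Pfkm made up 53.7%, 54.3% and 49.7% of phosphofructokinase TPM in proliferation controls, and 45.2%, 39.9% and 44.7% with 4HBP, so the groups did not overlap. In differentiation medium its share was 71.9% in each control and 71.2% to 73.1% with 4HBP. Pfkp made up 28.3% to 37.3% in proliferation controls and 42.8% to 44.8% with 4HBP, also without overlap. Ldhb made up 54.6% to 62.1% of lactate dehydrogenase TPM in proliferation controls, 48.4% to 59.5% with 4HBP and 81.1% to 82.1% in all differentiation libraries. Slc2a1 made up 57.5% to 62.0% of the TPM of the 2 glucose transporters in proliferation controls, 48.5% to 66.0% with 4HBP and 87.2% to 90.2% in differentiation medium. Its difference under 4HBP in proliferation medium, -1.48 points, was 3.75 points without 4HBP replicate 3.

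Epas1 made up 12.7%, 17.4% and 13.6% of the TPM of the 2 HIF alpha genes in proliferation controls and 8.41%, 5.84% and 6.39% with 4HBP. In differentiation medium it made up 75.7% and 76.1% in controls and 77.0% to 77.5% with 4HBP. Hk1 held 97.4% or more of the TPM of Hk1 and Hk2, and Eno1 97.4% or more of that of Eno1 and Eno2, in all 11 libraries. In proliferation medium both shares were lower with 4HBP without overlap. Hk1 was at 97.7% to 97.8% against 98.7% to 98.9%, and Eno1 at 97.4% to 97.8% against 98.2% to 98.4%. Over 32 tests of such shares, the smallest p of the exact two-sided permutation test was 0.1 and the smallest adjusted p 0.291. With 3 libraries against 3 that test cannot go below 0.1, and with 3 against 2 it cannot go below 0.2.

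**Figure D4:**
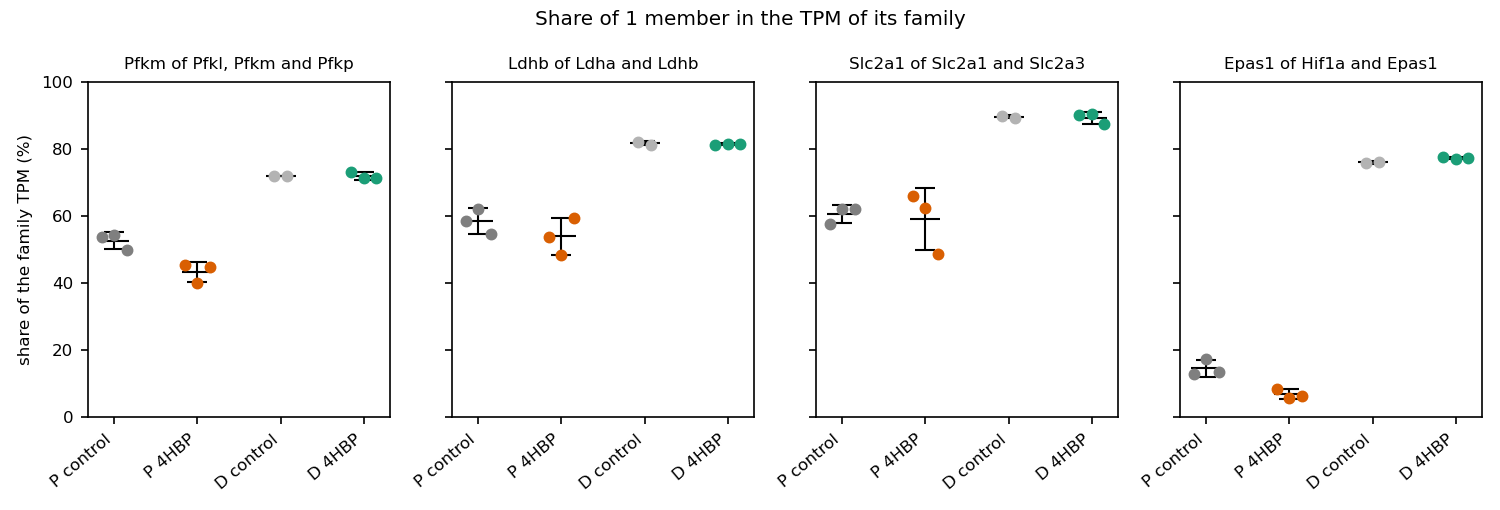
Share of 1 member in the summed TPM of its family, in percent (linear axis from 0 to 100), for every library. Points are libraries and bars the mean ± SD, with P for proliferation and D for differentiation medium. The shares of Pfkm, Ldhb, Slc2a1 and Epas1 are all higher in D. Among the shares shown, those of Pfkm and Epas1 do not overlap between control and 4HBP in P.

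Other genes of these pathways, from lists of the same kind, were counted in the same tests. Of all genes tested in proliferation medium, 3.74% were higher and 3.69% lower under 4HBP. In proliferation medium, 4 of 26 further glycolysis and pyruvate genes passed under 4HBP, all lower. They were Aldoc, the aldolase of astrocytes (log2 fold change -0.70), Bpgm (-0.41), Pdk2 (-0.39) and Slc2a4, a glucose transporter. Of 11 genes of the pentose phosphate pathway and gluconeogenesis, 2 rose and 1 fell. Pck2, the mitochondrial phosphoenolpyruvate carboxykinase, had a log2 fold change of 1.46, Rpe 0.28 and Pcx, the pyruvate carboxylase, -0.84. Of 13 genes of the HIF machinery, Hif3a fell (-1.48) and none rose. Of 29 further HIF targets, 4 rose, Ero1l (0.77), Stc2 (1.125), Vldlr (0.53) and Hmox1 (0.91), and 2 fell, Plod1 (-0.37) and Ppp1r3c (-0.68). The median of the 29 was 0.01.

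In differentiation medium, 0 of 25 further glycolysis and pyruvate genes passed the edgeR test under 4HBP, with 4 at an unadjusted p under 0.05. Of all genes tested there, 1.26% were higher and 1.3% lower. In the pentose phosphate and gluconeogenesis list Tkt, the transketolase, rose by a log2 fold change of 0.17 and Pck2 fell by 0.36. Hif3a fell by 0.60, and of the 29 further HIF targets Ak4 rose (0.24) and Mxi1 (-0.22) and Rora (-0.20) fell. For the difference of the effects, Pck2 had the value 1.82 and Hmox1 0.86, both past the test, as were 4.49% of all genes tested.

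Between media in controls, 14 further glycolysis and pyruvate genes rose and 6 fell of 26, and 15 further HIF targets rose and 7 fell of 29. Under 4HBP these counts were 17 and 5 of 26, and 12 and 11 of 29. Of all genes tested, 31.4% were higher and 31.5% lower in controls, and 33.8% and 33.4% under 4HBP. HIF machinery genes were 3 higher and 3 lower of 13 in controls, and 4 and 5 of 13 under 4HBP. The pentose phosphate and gluconeogenesis list had 3 higher and 4 lower of 11 in each comparison.

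Some members share sequence with copies elsewhere, which the counting could split. In 10 members, over 10% of the 40-base words of their exons occur in other genes, up to 54.3% for Pgk1, 36.7% for Pgam1, 27.0% for Ldhb and 26.0% for Gapdh. The copy of Pgk1 that shares most held at most 0.07 counts in a library, that of Ldhb 0, and that of Pgam1 up to 335 counts. An exon on the other strand overlaps 13 members.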

How the data were processed

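RNA of the 11 cultures was made into stranded mRNA libraries and sequenced in pairs. Per the labels and the methods, the authors trimmed reads with cutadapt, checked them with FastQC 0.11.5, and quantified them with RSEM 1.3.0 and Bowtie2 2.2.9 against mm10 (GRCm38) with GENCODE genes. The deposited expected counts came from RSEM, 1 value a gene, and carry no normalization, and the deposited TPM are scaled by the authors' run of RSEM for length and depth. The counts were unfiltered, and 18.6% of the values above 0 were not whole (tolerance 0.005). Symbols came from GENCODE, and Aldoa, listed under 2 identifiers, was taken as the more abundant.

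The members and lists were chosen with earlier results of these data known. Expected counts were rounded, filtered by filterByExpr, normalized by TMM and tested with edgeR 4.0.16 (R 4.3.3, glmQLFit and glmQLFTest, Benjamini-Hochberg over all genes tested, two-sided, called under 0.05). Each comparison used its own libraries, because the biological coefficient of variation was 0.117 in proliferation and 0.0368 in differentiation medium, and only the difference of the effects used all 11. The tests were also tested on simulated data. Per-library values are given for members called under 4HBP or in the difference, for the 4 largest called changes of each group of lists (enzymes; transporters and regulators; HIF genes) between media, for Gapdh and for members under the filter. Values of other members were added after they were seen. Family shares were tested with the exact permutation test (scipy). Alternatives were library totals, DESeq2 1.42.0, no filter, all libraries in 1 fit, limma 3.58.1 on log2(CPM+1), voom with sample weights, the replicate number as a block, and leaving out each library. Promoters came from RefSeq, and marker levels are sums of normalised CPM. A marker gene in each of 2 lists is not reported here, and the sums and counts of those lists leave it out.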

Additional observations from a re-analysis of the deposited data

Results flagged for a closer look

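Of the members, 4 were marked for a closer look because their response to 4HBP differed between the media by the test of the difference itself, given as the log2 fold change in proliferation minus that in differentiation medium. Vegfa had 0.90, Epas1 -0.99, Pfkm -0.52 and Ldhb -0.34. In differentiation medium, the levels with and without 4HBP overlapped for Epas1, Pfkm and Ldhb, and Vegfa fell there.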

How the results depend on the processing

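The count of members called under 4HBP in proliferation medium, 8, became 0 with limma on log2(CPM+1) (13 at an unadjusted p under 0.05) and 13 with voom weights, and lay between 0 and 9 when single libraries were left out. In differentiation medium, the 1 call became 0 with all 11 libraries in 1 edgeR fit (1 unadjusted) or with limma on log2(CPM+1) (5 unadjusted), 3 without the filter and 2 with the replicate block, and 0 or 1 with libraries left out. For the difference of the effects, the 4 calls became 7 with DESeq2, 13 without the filter, 11 with voom weights and 1 with limma on log2(CPM+1), and 0 to 8 with libraries left out. The medium comparisons gave 21 to 28 members in controls and 23 to 32 under 4HBP over all alternatives, against 26 and 26. The cause was not tested. The fits that leave a library out also hold fewer libraries, and the 2 were not told apart. Where 1 differentiation control remained, it was assumed to vary like the other libraries.

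The directions of the called members were kept in every alternative for each comparison, library totals included. Of the 8 members called in proliferation medium, the 1 in differentiation medium and the 4 in the difference, 0 kept their call in all alternatives, whereas 20 of 26 in controls and 22 of 26 under 4HBP did in the medium comparisons. Over all genes tested, calls ranged from 18 (limma on log2(CPM+1)) to 2668 (all 11 libraries) against 1074 in proliferation medium, from 0 (all 11 libraries, with 644 genes at an unadjusted p under 0.05, and limma, with 2660) to 778 (no filter) against 396 in differentiation medium, and from 264 (limma) to 1651 (voom) against 715 for the difference. Leaving out libraries gave 107 to 1429, 77 to 288 and 117 to 1100. In control cultures, limma on log2(CPM+1) gave 5847 genes higher and 3880 lower between media, against 4810 and 4821.

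Replicate numbers are shared between groups. The 10 same-numbered pairs of libraries had correlations of their deviations between -0.10 and 0.06, and 20 pairs with other numbers between -0.06 and 0.09. With so few libraries in a group, these correlations cannot settle whether the numbers pair the libraries, and no label says so. With the replicate block, 6 members were called in proliferation medium (without Hk2 and Ldhb), 2 in differentiation medium, 5 in the difference (without Ldhb), and 27 and 24 in the medium comparisons. Over all genes, the block gave 534, 745 and 692 calls in the first 3 of these. For the TPM shares, leaving out single libraries was added after the data were seen. The Slc2a1 difference under 4HBP ranged from -4.96 to 3.75 points in proliferation medium. In differentiation medium, the 4HBP differences of Slc2a1, Pfkm and Ldhb, all under 1 point in size, changed sign, and the other 12 of 16 differences kept theirs. Members near the floor of 3 counts in some libraries, such as Car9, Slc16a3 and Ankrd37, are limited by depth. P4ha2 and Ndrg1 were low but above the floor, with their lowest libraries at 0.773 and 0.683 normalised CPM.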
